A study of Mus musculus with 4 samples.

Results

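The genes described here load peptides onto MHC class I molecules or belong to the same presentation route: B2m, Tap1, Tap2, Tapbp, Tapbpl, Erap1, H2-T23, H2-M3 and Nlrc5. They were taken by gene symbol from the platform annotation, using probesets with exactly 1 symbol and, for a gene with several, the probeset with the highest mean over the 4 arrays. Of the 9 genes, 8 had such a probeset, out of 19938 genes so represented on the array. H2-T23, which encodes a nonclassical class I heavy chain, shared its probeset with a second symbol and has no value of its own here. The 8 measured genes make up the list whenever it is counted below. In the RefSeq annotation B2m lies on mouse chromosome 2, Tapbpl on 6, Nlrc5 on 8, Erap1 on 13 and the other genes on 17.

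The arrays held RNA from mouse bone marrow-derived macrophages, cells grown out of marrow for 7 days in medium with 10% supernatant of L929 fibroblasts, which secrete M-CSF. The 4 groups were 4get/Stat6-/- cells with IL-4, 4get/Stat6-/- cells in medium, wild-type BALB/c cells with IL-4 and wild-type BALB/c cells in medium, each on 1 array after 24 h of culture and a sort for F4/80, a surface protein of macrophages. Stat6 is the transcription factor through which the IL-4 receptor acts, and 4get is a reporter allele of the Il4 gene, which the labels do not list for the wild-type cells. The labels give 10 µg/mL of IL-4 in one place and 10 mg/mL in another, and they state neither the strain background of the Stat6-/- mice, nor their age or number, nor whether marrow was pooled. The reporter and any difference in background therefore cannot be told apart from the loss of Stat6.

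MHC class I molecules show short peptides from proteins made inside a cell to CD8 T cells. Proteasomes cut the proteins, the transporter TAP moves the fragments into the endoplasmic reticulum, tapasin and related chaperones hold an empty class I molecule beside the transporter, and aminopeptidases trim the peptides to length. The stable complex of heavy chain, beta-2 microglobulin and peptide then travels to the surface. Interferons raise transcription of much of this route, through interferon regulatory factors and through NLRC5, a transactivator that works at class I promoters. Macrophages carry class I constitutively.

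Signals come from RMA and are log2 values, and a difference is taken between log2 signals, so that 1 stands for 2-fold. A difference was called when it was at least 1 in size and the higher array reached a floor of 2.52, the median of the single-gene probesets, and "rose" and "fell" are used only of called genes. Each group had a single array, so no difference could be tested or set against a replicate spread, and precision is limited by how few arrays there are. All 8 genes were above the floor on all 4 arrays. Signals of different probesets depend on their probes, so levels are compared within a gene and never between genes.

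Stat6 itself had a signal of 4.25 in Stat6-/- cells with IL-4 and 4.54 in Stat6-/- cells in medium, against 6.68 in wild-type cells with IL-4 and 7.34 in wild-type cells in medium, in the direction of the labels. The macrophage markers Adgre1, which encodes F4/80, Csf1r, Cd68 and Itgam had signals of 8.63 or more on every array. The others of that list were lowest in wild-type cells with IL-4, Lyz2 at 11.4, Fcgr1 at 7.65, Cd14 at 6.38 and Mertk at 5.36. Of the 8 macrophage markers, 4 fell with IL-4 in wild-type cells, Cd14 (-2.74), Fcgr1 (-1.76), Mertk (-1.36) and Adgre1 (-1.21), and 0 did so in Stat6-/- cells. The summed log2 signal of the 8 was 76.5 and 77.0 in Stat6-/- cells with IL-4 and in medium, and 69.9 and 78.4 in wild-type cells with IL-4 and in medium. Of 7 T cell markers matched on the array, 2 reached the floor on at least 1 array, Cd3e and Thy1, and the list summed to 14.5 and 15.5 in Stat6-/- cells with IL-4 and in medium, against 14.1 and 13.5 in wild-type cells with IL-4 and in medium. Of 6 dendritic cell markers 1 reached the floor, Zbtb46, at 2.92 at most, with sums of 11.0 and 10.9 in Stat6-/- cells with IL-4 and in medium and of 11.0 and 10.7 in wild-type cells with IL-4 and in medium. Of the other marker lists, 1 of 4 B cell, 2 of 7 neutrophil, 1 of 5 basophil and mast cell, 1 of 3 eosinophil, 1 of 5 NK cell, 0 of 2 erythroid and 4 of 7 fibroblast genes reached the floor on an array. The neutrophil list summed to 14.1 and 16.1 in Stat6-/- cells with IL-4 and in medium, against 13.7 and 15.1 in wild-type cells. Its gene Ngp, at 2.85 at most and so near the floor, fell with IL-4 in wild type (-1.04) and differed by -0.86 in Stat6-/- cells. The fibroblast list summed to 15.5 and 15.3 in Stat6-/- cells with IL-4 and in medium, against 17.2 and 14.6 in wild-type cells with IL-4 and in medium. Most of that difference in wild type was Postn, which encodes a matrix protein, at 3.55 with IL-4 and 1.72 in medium, while the other genes of the list differed by 0.46 or less. Whether the macrophage marker shift, Ngp or Postn has a part in the values below was not tested. In such bulk RNA fewer cells of a type and less RNA per cell cannot be told apart.

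None of the 8 genes was called in any of the 5 comparisons, with Nlrc5 read by 1 of its 19 probesets. Here and below, all genes means those that reached the floor on an array of the comparison, between 10282 and 10798 of the 19938. The share of all genes called was 9.74% for IL-4 against medium in wild type, 0.355% for IL-4 against medium in Stat6-/-, 1.45% for Stat6-/- against wild type in medium, 8.84% for Stat6-/- against wild type with IL-4, and 8.97% for the IL-4 difference of wild type minus that of Stat6-/-, called the difference between the IL-4 effects below. At these shares a list of 8 would hold less than 1 called gene, so the count of 0 does not set the list apart. With a smaller rule of 1.5-fold, Tap1 alone was called for IL-4 against medium in wild type, where 28.3% of all genes were, and Tap1 alone for Stat6-/- against wild type with IL-4, where 23% were. For the difference between the IL-4 effects, Tap1 and H2-M3 passed 1.5-fold, against 26.2% of all genes. At 1.5-fold 0 of the 8 passed for IL-4 against medium in Stat6-/- and for Stat6-/- against wild type in medium, where 5.73% and 10.8% of all genes passed.

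**Figure D1:**
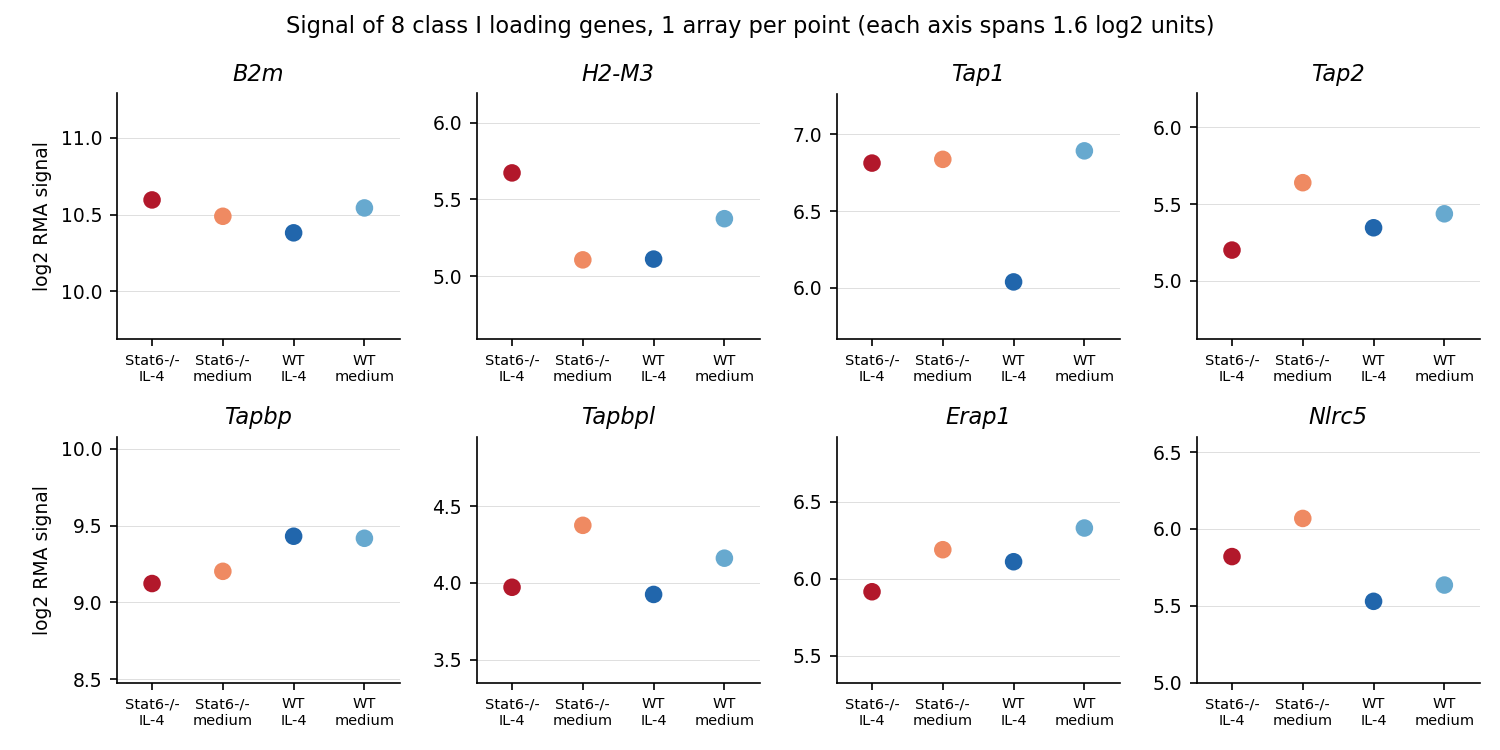
Log2 RMA signal of the 8 class I loading genes, 1 panel per gene and 1 point per array, with the Stat6-/- arrays left of the wild-type arrays and IL-4 left of medium. Each vertical axis spans the same 1.6 log2 units around the gene's own values; Tap1 stands out by the wild-type array with IL-4, at 6.04 against 6.81 or more on the other arrays.

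The heterodimer of Tap1 and Tap2 is the peptide transporter. Tap1 had signals of 6.81 in Stat6-/- cells with IL-4 and 6.84 in Stat6-/- cells in medium, and of 6.04 in wild-type cells with IL-4 and 6.89 in wild-type cells in medium. A single array, wild type with IL-4, lay apart, and the other 3 were between 6.81 and 6.89. Tap1 was thus 1.81-fold lower with IL-4 in wild-type cells (-0.85), the largest difference among the 8 genes there, and 14.0% of all genes differed by more. In Stat6-/- cells the IL-4 difference of Tap1 was -0.02. Between genotypes it was 0.77 with IL-4 and -0.06 in medium.

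Tap2, the partner chain, did not share this pattern. Its signals were 5.20 in Stat6-/- cells with IL-4 and 5.64 in Stat6-/- cells in medium, against 5.35 in wild-type cells with IL-4 and 5.44 in wild-type cells in medium. Here the lowest array was Stat6-/- with IL-4 and the highest Stat6-/- in medium. The IL-4 difference was -0.44 in Stat6-/- cells and -0.09 in wild-type cells. The transporter chains therefore differed in which genotype held their larger IL-4 difference, Tap1 in wild type and Tap2 in Stat6-/-.

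Tap1 and Tap2 lie in the MHC class II region of mouse chromosome 17 among genes of the immunoproteasome, the interferon-inducible form of the proteasome. In the RefSeq gene table of GRCm38.p6 the order is Psmb9, Tap1, Psmb8, Tap2, and Psmb9 and Tap1 are read in opposite directions from starts 226 bases apart. Psmb9, an immunoproteasome subunit, had signals of 7.09 in Stat6-/- cells with IL-4 and 6.99 in Stat6-/- cells in medium, against 6.71 in wild-type cells with IL-4 and 6.79 in wild-type cells in medium. Its IL-4 difference in wild type was -0.08, beside -0.85 for Tap1 across the same stretch. Psmb8, the subunit on the other side of Tap1, differed by 0.81 with IL-4 in wild-type cells and by 0.54 in Stat6-/- cells. Neighbours within this cluster thus lay on both sides of 0 in wild type.

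The sequences below are from the RefSeq promoter table of GRCm38.p6, which held 6 of the 9 genes, and are shown for the stretch Tap1 shares with Psmb9, for H2-M3, which has the only GAS match among the 6, and for the interferon-type matches of B2m and Erap1. Searched on both strands in the 250 bases before each start were GAAANNGAA (core of the interferon-stimulated response element), TTCNNNGAA (GAS, the STAT site), a Stat6-type site of TTC and GAA with 4 bases between them, CCAAT, and GGNNTTTCC (kappaB). Of 32851 promoters in the table, 7.13%, 7.02%, 5.85%, 33.8% and 4.93% held these motifs, in that order. Capitals mark matches on either strand. The first lies at chr17:34187331-34187555 (+), the 225 bases between the annotated starts of Psmb9 and Tap1. The second is chr17:37269984-37270233 (+), the 250 bases before H2-M3. The third is chr2:122147544-122147573 (+), 143 to 114 bases before B2m, and the fourth chr13:74639823-74639852 (+), the last 30 bases before Erap1.
Tap1: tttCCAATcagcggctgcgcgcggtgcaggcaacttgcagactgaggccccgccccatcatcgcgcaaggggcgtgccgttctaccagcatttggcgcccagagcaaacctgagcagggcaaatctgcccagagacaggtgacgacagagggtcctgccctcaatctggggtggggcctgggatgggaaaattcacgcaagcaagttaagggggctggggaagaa
H2-M3: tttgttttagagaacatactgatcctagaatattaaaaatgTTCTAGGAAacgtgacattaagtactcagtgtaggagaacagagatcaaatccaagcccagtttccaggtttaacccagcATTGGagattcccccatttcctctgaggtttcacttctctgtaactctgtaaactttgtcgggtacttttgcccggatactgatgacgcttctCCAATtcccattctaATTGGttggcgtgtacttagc
B2m: acatGAAACTGAAaatgGGAAAGTCCcttt
Erap1: cacgtgccctgccggtccaccTTCACTTTC

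The B2m stretch held an interferon-type match and a kappaB match side by side. The window of H2-T23, which has no signal of its own here, held an interferon-type match too, 123 to 115 bases before the start, and is not printed. The matches in the H2-M3 stretch were 1 GAS match, 209 to 201 bases before the start, and 3 CCAAT matches. In the Tap1 stretch the letters found were 1 CCAAT match, 222 to 218 bases before the start, beside the start of Psmb9. None of the 6 windows held the Stat6-type letters. These are letter matches in a fixed window and say nothing of whether a factor was bound.

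B2m encodes beta-2 microglobulin, the light chain that every class I heavy chain needs. Its signals were 10.60 in Stat6-/- cells with IL-4 and 10.49 in Stat6-/- cells in medium, against 10.38 in wild-type cells with IL-4 and 10.54 in wild-type cells in medium. The 4 arrays spanned 0.21, the narrowest range among the 8 genes. The IL-4 difference was 0.11 in Stat6-/- cells and -0.16 in wild-type cells, and 75.3% of all genes moved further in wild type.

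H2-M3, a nonclassical heavy chain that presents N-formylated peptides such as those of bacteria and mitochondria, had signals of 5.67 in Stat6-/- cells with IL-4 and 5.11 in Stat6-/- cells in medium, against 5.11 in wild-type cells with IL-4 and 5.37 in wild-type cells in medium. The high array was Stat6-/- with IL-4. Its IL-4 difference of 0.57 in Stat6-/- cells was the largest of the 8 there, and 6.44% of all genes differed by more. In wild-type cells it was -0.26, so that wild type minus Stat6-/- came to -0.83, the same as for Tap1 (-0.83). The profiles behind these equal values differed, since Tap1 had a low array in wild type with IL-4 and H2-M3 a high array in Stat6-/- with IL-4.

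Tapbp encodes tapasin, which bridges class I and the transporter, and Tapbpl encodes TAPBPR, a related peptide editor outside that complex. Tapbp had signals of 9.12 in Stat6-/- cells with IL-4 and 9.20 in Stat6-/- cells in medium, against 9.43 in wild-type cells with IL-4 and 9.42 in wild-type cells in medium. The Stat6-/- arrays were both below both wild-type arrays, by 0.31 with IL-4 and 0.22 in medium, while IL-4 itself went with -0.08 in Stat6-/- and 0.01 in wild-type cells. Tapbpl had signals of 3.97 in Stat6-/- cells with IL-4 and 4.37 in Stat6-/- cells in medium, against 3.92 in wild-type cells with IL-4 and 4.16 in wild-type cells in medium. As deposited, both IL-4 arrays were below both medium arrays, with differences of -0.40 in Stat6-/- and -0.24 in wild-type cells. In the deposited values Tapbp thus separated by genotype and Tapbpl by culture, with 1 array per group. Between genotypes, 48.57% of all genes differed by more than Tapbp with IL-4 and 53.99% in medium. For IL-4, 17.01% differed by more than Tapbpl in Stat6-/- and 65.16% in wild-type cells. With quantile normalization applied again, the Tapbpl IL-4 differences were -0.39 in Stat6-/- and -0.07 in wild-type cells. Its genotype differences under that scaling were 0.05 with IL-4 and 0.36 in medium.

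Erap1, the aminopeptidase of the endoplasmic reticulum that trims class I peptides (ERAAP in mice), had signals of 5.92 in Stat6-/- cells with IL-4 and 6.19 in Stat6-/- cells in medium, against 6.11 in wild-type cells with IL-4 and 6.33 in wild-type cells in medium. The IL-4 differences were -0.27 in Stat6-/- and -0.22 in wild-type cells. Their difference between genotypes was 0.05, the smallest of the 8 in size as deposited. It was 0.13 with quantile normalization applied again, where B2m had -0.02, and 0.14 with the intensity trend removed, where Tapbp had 0.11.

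**Figure D2:**
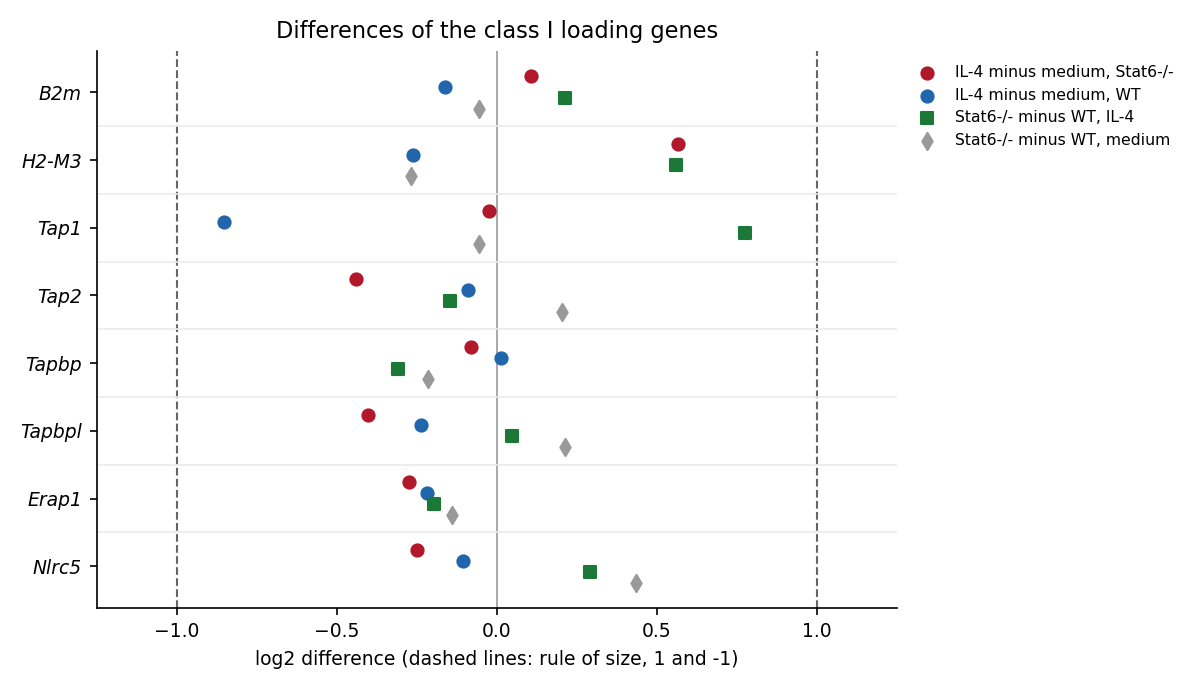
Log2 differences of the 8 genes, 1 row per gene, for IL-4 minus medium in Stat6-/- and in wild-type cells (circles) and for Stat6-/- minus wild type with IL-4 (squares) and in medium (diamonds), with dashed lines at the rule of size of 1. All points lie inside the lines, the outermost being Tap1 at -0.85 and 0.77, which share the wild-type array with IL-4.

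Nlrc5 encodes the transactivator of class I genes and was read by 19 probesets with this symbol, the other 7 genes by 1 each. The probeset with the highest mean, which stands for the gene here, had signals of 5.82 in Stat6-/- cells with IL-4 and 6.07 in Stat6-/- cells in medium, against 5.53 in wild-type cells with IL-4 and 5.63 in wild-type cells in medium. Both Stat6-/- arrays were above both wild-type arrays, by 0.29 with IL-4 and 0.43 in medium. Its IL-4 difference was -0.25 in Stat6-/- cells and -0.11 in wild-type cells.

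Most of the other Nlrc5 probesets had the opposite sign to it for IL-4 in Stat6-/- cells. For IL-4 in wild type and for genotype in medium most shared its sign, and the median over the probesets differed from it in size. In wild-type cells 17 of the 19 had negative IL-4 differences, between -0.99 and 0.27 with a median of -0.35. In Stat6-/- cells 13 of 19 had positive ones, between -0.63 and 1.05 with a median of 0.16, opposite in sign to the probeset used for the gene. With the mean of all probesets, the IL-4 difference of Nlrc5 became 0.11 in Stat6-/- and -0.38 in wild-type cells, and wild type minus Stat6-/- became -0.50, against 0.14 from the single probeset. Wild type minus Stat6-/- was negative for 14 of the 19 and positive for 5, with a median of -0.33. In that comparison 3 were past 2-fold, the lowest at -1.79. For IL-4 against medium 1 was past 2-fold in Stat6-/- cells and 0 in wild-type cells. For Stat6-/- against wild type with IL-4, 18 of 19 probesets were positive, with a median of 0.46, and 4 were past 2-fold. For the same genotypes in medium 12 were positive and 7 negative, with a median of 0.05, against 0.43 from the single probeset. Of the 19, 15 were above the floor on all 4 arrays, and the probesets share their transcript and their arrays, so they are no replicates. Quantile normalization applied again left 13 of 19 negative with IL-4 in wild type. It kept 13 positive with IL-4 in Stat6-/- cells and 18 positive for Stat6-/- against wild type with IL-4. For the genotypes in medium it gave 14 positive, and arrays shifted to one median gave 9.

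**Figure D3:**
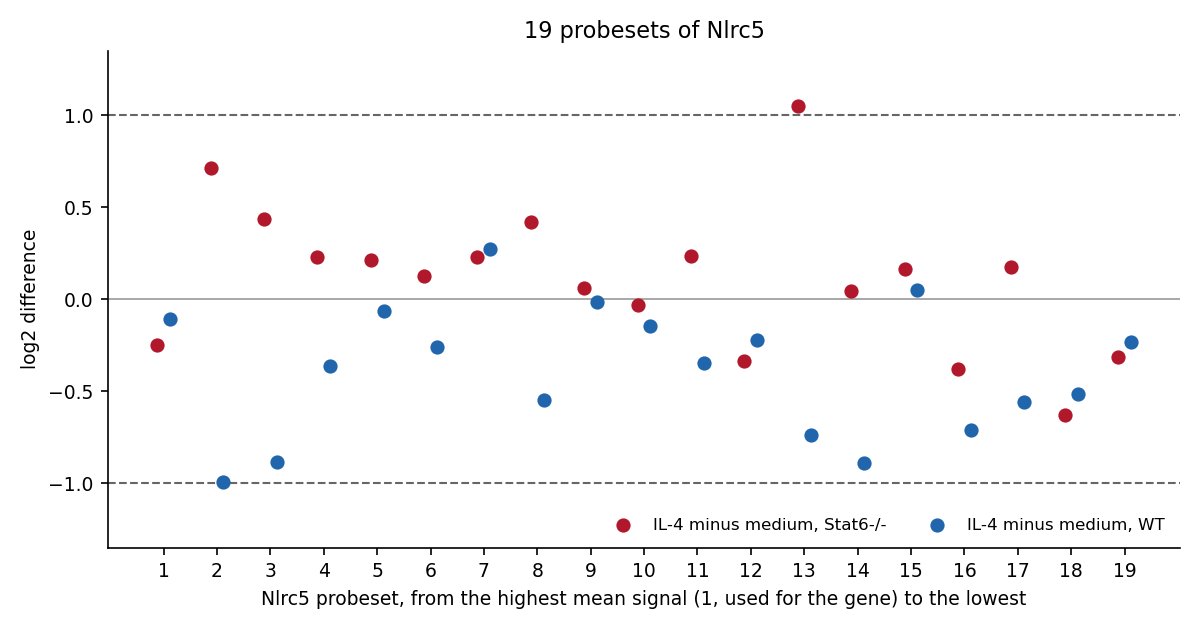
Log2 difference of IL-4 minus medium for each of the 19 Nlrc5 probesets, in Stat6-/- cells (red) and wild-type cells (blue), ordered from the highest to the lowest mean signal. The probeset numbered 1 stands for the gene; most of the others have a wild-type point below 0 (17 of 19 in all) and a Stat6-/- point above 0 (13 of 19).

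Over the list, IL-4 in wild-type cells gave a median difference of -0.19 with 7 of 8 genes below 0, beside a median of -0.11 with 58.6% below 0 over the 10282 genes that reached the floor. Quantile normalization applied again gave medians of 0.02 for all genes and -0.05 for the 8, and it turned the sign of 4 of them, B2m, Tap2, Tapbp and Nlrc5, so the common sign depends on the scaling. The median size of the difference in wild type was 0.19 for the 8 genes and 0.35 for all genes, and Tap1 was the 1 member above the all-gene value. In Stat6-/- cells the list median was -0.16, with 2 genes above 0, beside -0.05 over all genes, and the median size was 0.26 beside 0.20. That list median was -0.05 with the mean of all probesets and -0.08 with the intensity trend removed. The median for Stat6-/- against wild type was 0.13 with IL-4, beside 0.00 for all genes, and -0.05 in medium, beside -0.11; the median in medium turned to 0.09 with quantile normalization applied again and to 0.08 with the intensity trend removed. For the difference between the IL-4 effects the median was 0.07 and the mean -0.14, of opposite sign, with Tap1 and H2-M3 the lowest values, and the median was -0.11 with the mean of all probesets. The comparisons share arrays, so their values are not independent.

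**Figure D4:**
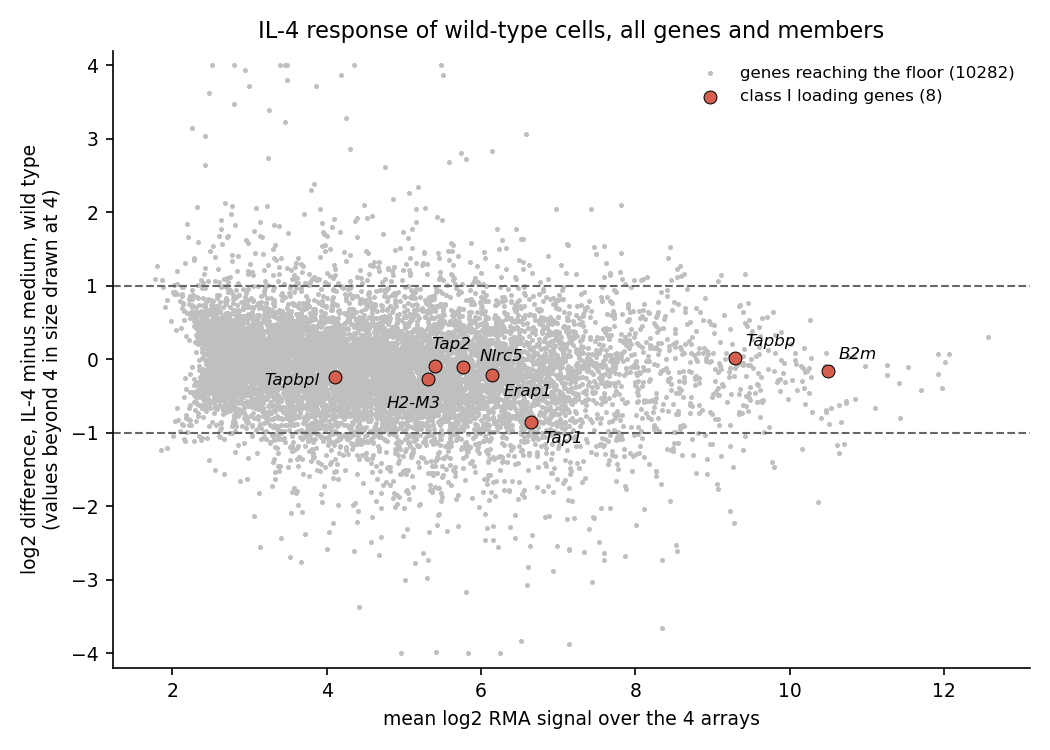
Log2 difference of IL-4 minus medium in wild-type cells against the mean log2 signal over the 4 arrays, for the 10282 genes reaching the floor (grey) and the 8 class I loading genes (red), with dashed lines at the rule of size. Tap1 at -0.85 lies nearest to a line, and the other 7 lie between -0.26 and 0.01.

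Because Tap1 had the largest difference, chosen after its values were seen, the genes of most like pattern were looked up for it among 9065 other genes above the floor on all arrays, by the Euclidean distance between the 4 signals after centring. The nearest were Itm2b (distance 0.03), a membrane protein of the BRICHOS family, Rasa4 (0.03), a Ras GTPase activator, and Pdzd8 (0.04). Itm2b had signals of 10.81 in Stat6-/- cells with IL-4 and 10.87 in Stat6-/- cells in medium, against 10.07 in wild-type cells with IL-4 and 10.93 in wild-type cells in medium. Among the 8 genes, each read by the probeset that stands for it, the nearest to Tap1 was Nlrc5, at a distance of 0.55. The other Nlrc5 probesets were not compared with Tap1 in this way. For IL-4 in wild type the 19 Nlrc5 probesets ran from -0.99 to 0.27, so the distance holds for that probeset alone. Over 4 arrays a distance rests on 3 free values.

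The heavy chains themselves were only partly readable, because H2-K1 and H2-D1 are annotated together on shared probesets. Of 16 heavy chain and class I-like genes listed, 8 matched and 5 reached the floor. Their median IL-4 difference in wild type was -0.85, and 2 of the 5 fell: H2-T24 (-1.17), a nonclassical gene of the T region, and Mr1 (-1.10), which presents vitamin B metabolites to MAIT cells. Of all genes, 6.78% fell and 2.96% rose by this rule. H2-T24 had signals of 7.72 in Stat6-/- cells with IL-4 and 7.77 in Stat6-/- cells in medium, against 6.73 in wild-type cells with IL-4 and 7.90 in wild-type cells in medium, again with a single low array. Mr1 had signals of 4.91 in Stat6-/- cells with IL-4 and 5.48 in Stat6-/- cells in medium, against 3.77 in wild-type cells with IL-4 and 4.87 in wild-type cells in medium. Its call in wild type was lost with quantile normalization applied again (-0.91) and with the intensity trend removed (-0.95). In Stat6-/- cells 0 of the 5 were called.

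In the proteasome lists 2 genes were called in wild type, both higher. Psmb10, an immunoproteasome subunit, rose with IL-4 in wild type (1.17) as the 1 of 5 genes of the immunoproteasome and its activator, whose median was 0.38, and the median in Stat6-/- cells was 0.54 with 0 called. Psmb5, the constitutive catalytic subunit that Psmb8 replaces, rose by 1.32 in wild type as 1 of 3, or 2 of 3 with quantile normalization applied again or the intensity trend removed, when Psmb6 passed too. Its signals were 5.55 in Stat6-/- cells with IL-4 and 5.39 in Stat6-/- cells in medium, against 6.91 in wild-type cells with IL-4 and 5.59 in wild-type cells in medium. Of 5 cytosolic peptidases 0 were called in wild type, with Npepps at -0.99 and Thop1 at 0.52 as the largest differences. Of 7 endoplasmic reticulum chaperones 0 were called, with a median of 0.02 and Calr (0.48) and Pdia3 (0.14), both of the peptide loading complex, the farthest from 0 in wild type.

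Among 13 transcription factors of class I promoters, Irf8, an interferon regulatory factor of myeloid cells, was the 1 that fell with IL-4 in wild type (-1.17), and the list median was -0.10, or 0.06 with quantile normalization applied again or the intensity trend removed. Irf8 had signals of 7.20 in Stat6-/- cells with IL-4 and 7.66 in Stat6-/- cells in medium, against 6.0 in wild-type cells with IL-4 and 7.17 in wild-type cells in medium. Among 9 genes of interferon receptors and signalling, Ifnar2, a chain of the type I interferon receptor, fell in wild type (-1.34), and its IL-4 difference in Stat6-/- cells was -0.17. The list median in wild type was -0.31.

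MHC class II presentation is the parallel route for peptides taken up from outside. Of its 6 genes above the floor, Cd74 (1.38), the invariant chain, and H2-DMa (1.11), a chain of the peptide exchanger, rose with IL-4 in wild type, and the median was 0.54 beside -0.19 for the class I loading genes. Both lists were chosen with these results known, and the difference between them was not tested. For Stat6-/- against wild type with IL-4, 4 of the 6 class II genes fell by the rule of size, and 0 of the 8 class I loading genes did. Of the 4, 2 did so under quantile normalization applied again or with the intensity trend removed. Over all genes 4.83% were lower and 4.01% higher there. The class II median for these genotypes was -1.04 with IL-4 and already -0.56 in medium, beside -0.11 over all genes in medium. In medium H2-Aa alone was called, lower in Stat6-/-, and its call was lost under both of these scalings. H2-Aa, H2-Ab1 and H2-Eb1, among the 4 lower with IL-4, were not called for IL-4 against medium in wild type. Of the heavy chain and class I-like list, Mr1 (1.14) and H2-T10 (1.07) were the 2 of 5 higher in Stat6-/- cells with IL-4, and H2-T24 made 3 with quantile normalization applied again or the intensity trend removed, in a comparison that uses the same wild-type array with IL-4. The genotype difference in medium was already 0.61 for Mr1, and it was -0.07 for H2-T10 and -0.13 for H2-T24.

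**Figure D5:**
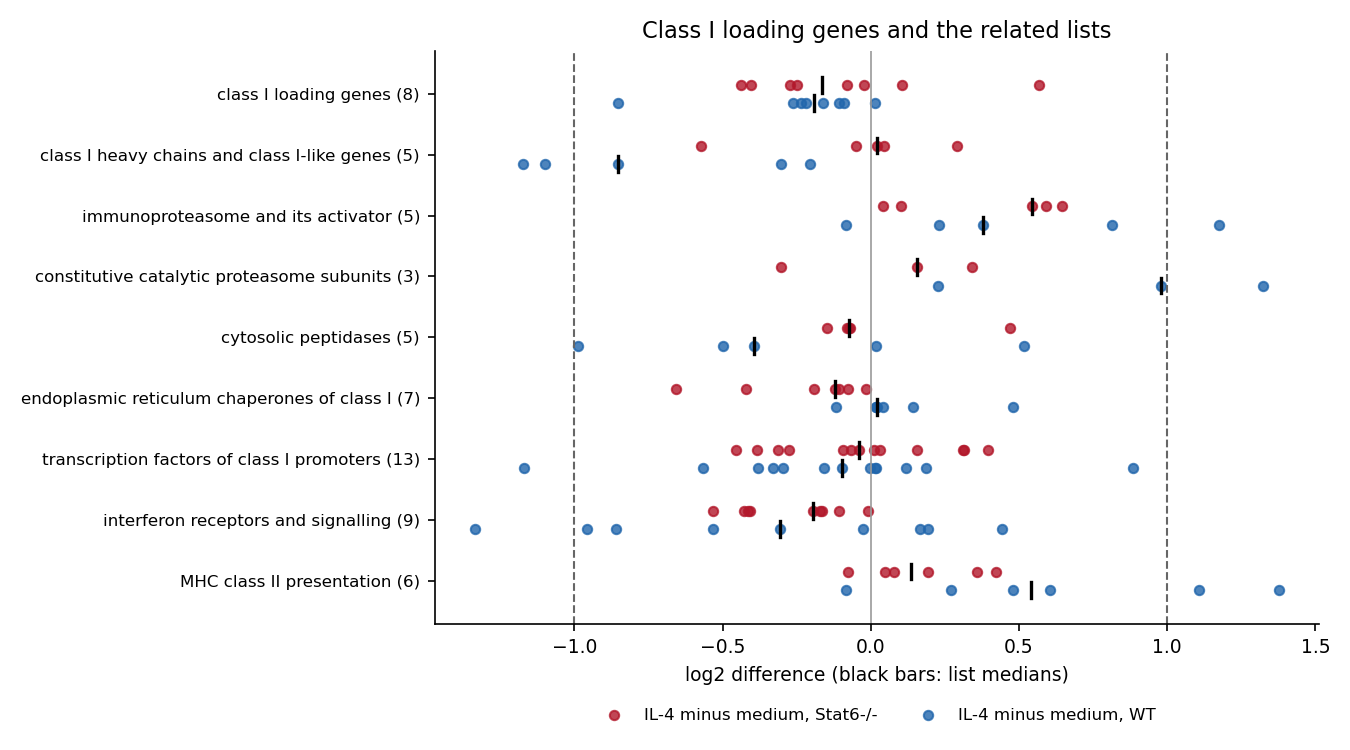
Log2 difference of IL-4 minus medium in Stat6-/- cells (red, upper points) and wild-type cells (blue, lower points) for the 8 class I loading genes and the members above the floor of 8 related lists, with black bars at the medians and dashed lines at the rule of size. The wild-type medians are -0.19 for the class I loading genes, -0.85 for the heavy chain list and 0.54 for MHC class II presentation.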

How the data were processed

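The authors deposited 1 log2 RMA signal per probeset and array, made with Affymetrix Expression Console per the submitters' processing notes; no version, setting or build is given by the sources used here, and the log base was read from the range of the values (0.16 to 13.1). RMA corrects background, normalizes by quantiles and summarises probes, and it understates differences of weak signals. Of 35557 probesets, 21789 had 1 symbol, 1621 several and 12147 none in the annotation used here; 999 of the 19938 genes had several probesets. All columns were mapped to samples.

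Differences were computed per gene in Python 3.11.15 with pandas 2.3.3, and the lowess trend (fraction 0.3) with statsmodels 0.14.6. The code of the call rule was tested on simulated data, which gives no error rate for these arrays. Named are all members, related genes past the rule of size in wild type (or the 2 largest of a list) and those said to be chosen after their values were seen; Psmb9 and Psmb8, as neighbours of Tap1, H2-T10, Psmb6 and the cell type markers are such genes. The members, the 8 related lists (72 entries, 58 matched) and the 10 marker lists were chosen with earlier results of these data known. The alternatives were 3 scalings, 3 treatments of low signals, the mean of all probesets and a 1.5-fold rule. Promoter sequences and gene order came from RefSeq tables of GRCm38.p6.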

Additional observations from a re-analysis of the deposited data

Results flagged for a closer look

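Opposite signs of the IL-4 differences in Stat6-/- and wild-type cells were found for 3 of the 8 class I loading genes and for 20 of the 53 genes of the related lists, beside 38.8% of all genes that reached the floor, with 1 array behind each value; the difference was not tested. Wild type minus Stat6-/- was -0.83 for H2-M3, with 0.57 in Stat6-/- and -0.26 in wild-type cells. It was -0.27 for B2m, with 0.11 in Stat6-/- and -0.16 in wild-type cells, and 0.093 for Tapbp, with -0.08 in Stat6-/- and 0.01 in wild-type cells. Of the related genes named here it was -1.15 for H2-T10, with 0.29 in Stat6-/- and -0.85 in wild-type cells, 0.50 for Calr, 0.25 for Pdia3 and -0.18 for Psmb9. It was -0.89 for Rasa4, whose difference of 0.00072 in Stat6-/- cells is too small for its sign to be read. Among the cell type markers it was -2.84 for Cd14, -1.85 for Fcgr1, -0.30 for Cd68, 0.27 for Cd3e and 1.90 for Postn. Of these genes H2-T10, Cd14, Fcgr1 and Postn passed the 2-fold rule in this comparison, and none of the 3 class I loading genes did. The signs were no longer opposite for B2m (0.10 in Stat6-/- and 0.07 in wild-type cells) and Tapbp (-0.12 in Stat6-/- and -0.05 in wild-type cells) with quantile normalization applied again. With the intensity trend removed this held for Tapbp (0.006 in Stat6-/- and 0.11 in wild-type cells) and Calr (0.07 in Stat6-/- and 0.58 in wild-type cells). Psmb9 was above 0 in both genotypes under both of these scalings, at 0.16 in Stat6-/- and 0.03 in wild-type cells under the quantile setting and at 0.20 in Stat6-/- and 0.07 in wild-type cells without the trend. H2-M3, H2-T10 and Pdia3 kept opposite signs under these scalings and with arrays shifted to one median. Other members took opposite signs with quantile normalization applied again: Tap1 (0.03 in Stat6-/- and -0.74 in wild-type cells), Tap2 (-0.40 and 0.10) and Nlrc5 (-0.19 and 0.07). The same genes did so with the intensity trend removed, and Nlrc5 also with the mean of all probesets (0.11 and -0.38). Which members have opposite signs therefore depends on the processing.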

How the results depend on the processing

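The count of called class I loading genes was 0 in all 5 comparisons under 7 of the 8 alternatives. The rule of 1.5-fold gave 1 for IL-4 against medium in wild type, 1 for Stat6-/- against wild type with IL-4 and 2 for the difference between the IL-4 effects, which follows from the lower bar itself. Of the 40 differences (8 genes in 5 comparisons), quantile normalization applied again changed the sign of 8, removal of the intensity trend 7, the mean of all probesets 2 and arrays shifted to one median 1, all of differences below the rule of size; the cause was not tested. Tap1 kept its sign with IL-4 in wild type, between -0.86 and -0.68, and in Stat6-/- against wild type with IL-4, between 0.72 and 0.86. H2-M3 ran from 0.57 to 0.64 for IL-4 in Stat6-/- cells. The Nlrc5 value of wild type minus Stat6-/- ran from -0.50 to 0.26. No paired analysis was possible because each group had 1 array. All 8 genes lay above the floor, so the treatments of low signals did not move their values.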

Other observations

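The probeset annotated to H2-T23 together with H2-T-ps had signals of 8.01 in Stat6-/- cells with IL-4 and 8.15 in Stat6-/- cells in medium, against 7.90 in wild-type cells with IL-4 and 8.13 in wild-type cells in medium. The IL-4 difference was -0.13 in Stat6-/- and -0.23 in wild-type cells, and the signal cannot be assigned to either symbol.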
